A study of Homo sapiens with 2 samples.

Results

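Poly(A) sites whose transcripts carried long tails before any treatment were followed through graded replacement of the cytoplasmic poly(A)-binding proteins. Reads of both uninduced subsamples were pooled, and sites were chosen by these reads alone, as those with at least 20 of them and a pooled median tail of 120 nt or more. Of 8995 sites with reads in the series, 2470 (27.5%) had 20 or more pooled reads, and 267 of these (10.8%) met the rule and are called long-tailed. The remaining 2203 are called the other sites. Because uninduced tails chose the sites, their uninduced lengths are given as a description and were not tested.

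Tails were read by nanopore sequencing of native RNA in HCT116, a human colon cancer line. All cells carried mAID degron tags on endogenous PABPC1 and PABPC4, and a Sleeping Beauty transposon, integrated in many copies in a polyclonal line, that expressed either PABPC1 or PABP1212, a PABPC1 with RRM1 and RRM2 duplicated. Induced cells spent 13 days in IAA (indole-3-acetic acid, 0.5 mM), which triggers loss of the tagged proteins, with doxycycline at 1 μg/mL for the transgene, and were sorted by transgene expression into 4 gates of 25%, named here lowest, second-lowest, second-highest and highest level. Uninduced cells had no treatment and no sort. Each transgene is 1 library of 5 barcoded subsamples, from 65862 to 630986 reads deep, and no subsample was repeated, so a level is 1 observation and transgene and library cannot be told apart.

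Cytoplasmic poly(A)-binding protein coats the tail that is added to an mRNA in the nucleus. It is known to guard tails against uncontrolled loss, to work with the deadenylases that shorten them, and to link tail and cap in translation. RRM1 and RRM2 hold most of its affinity for poly(A). Steady-state tails differ between mRNAs, and short-lived mRNAs are often caught with longer tails than abundant, stable ones.

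The files pair sites with chromosome, position and strand only. Their coordinates are not those of hg38, the build named in the submitters' processing notes. Of the 8995 sites, only 239 (2.66%) had an hg38 transcript end of GENCODE v29 no more than 25 nt away, and the last site on chromosome 8 lay past the last transcript end there. Sites are therefore named by chromosome, strand and position as the files write them, and the sources used here do not name that build. No gene name and no sequence was read from these positions, and cell type markers could not be checked.

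In uninduced cells the long-tailed sites formed a continuous upper end and not a separate class. Their pooled medians ran from 120 to 233.5 nt with a median of 128 nt, and 153 lay under 130 nt, 96 from 130 to under 150 nt and 18 at 150 nt or more. The other sites had a median of 95.5 nt. Most long-tailed sites were sparsely read, with a median of 29 pooled reads (quartiles 23 and 39, highest 395), against 40 at the other sites. Just inside the threshold, 22 sites lay under 121 nt, and just outside it 26 lay at 119 nt or more. The most read of those inside were at 62495683 on chromosome 17 (minus strand), with 143 reads and a median of 120 nt, and at 104744062 on chromosome 12 (plus strand), with 109 reads and 120 nt. Just outside were the site at 124924881 on chromosome 10 (plus strand), with 88 reads and 119 nt, and the site at 77381764 on chromosome X (plus strand), with 74 reads and 119.5 nt.

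Part of the uninduced excess was carried over to the other library's uninduced cells. Of the 180 sites that were long in the PABP1212 uninduced subsample alone (20 or more reads), 87 had at least 10 reads in the PABPC1 uninduced subsample. Their median there was 119 nt against 96 nt at the sites not chosen, a gap of 23 nt where the choice itself had given 33 nt. In that subsample 42 of the 87 (48.3%) were again at 120 nt or more, against 12.3% of the sites not chosen. Chosen the other way, 41 sites long in PABPC1 uninduced cells had a median of 110.5 nt in PABP1212 uninduced cells against 92 nt, so a gap of 34 nt became 18.5 nt. Of the 41, 39 lay over the median of the sites not chosen, and 12 (29.3%) were again at 120 nt or more, against 1.56% of the sites not chosen. The pooled uninduced reads were 67552 from PABPC1 and 210926 from PABP1212, so the choice of the long-tailed sites rested mostly on the PABP1212 library. Only 86 long-tailed sites had 10 or more reads in both uninduced subsamples. Of these 86, 43 had medians of 120 nt or more in both, and 43 in a single subsample. The reads behind this split are those that chose the sites, so it is a description and no check of agreement.

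In the sorted cells, whose reads the choice did not use, long-tailed sites kept longer tails than the other sites at all 4 levels of both transgenes. With PABPC1 the median over long-tailed sites of the site median (10 or more reads) was 136 nt at the lowest level (quartiles over 116 sites, 118.8 and 152.1), 123 nt at the second-lowest, 118 nt at the second-highest and 118 nt at the highest. The other sites had 116, 103, 100 and 100 nt. With PABP1212 the long-tailed sites had 139 nt (quartiles over 237 sites, 115.5 and 159.5), 114 nt, 98 nt and 100 nt, and the other sites 123, 98.5, 82.5 and 84 nt. The ranges of both sets overlapped at each level, since the lower quartile of the long-tailed sites lay near the median of the others. An excess was also seen just outside the threshold. The 317 other sites of 110 to under 120 nt lay over the median of all other sites by 7 to 11 nt with PABPC1. With PABP1212 they did so by 5.5 to 11 nt.

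**Figure D1:**
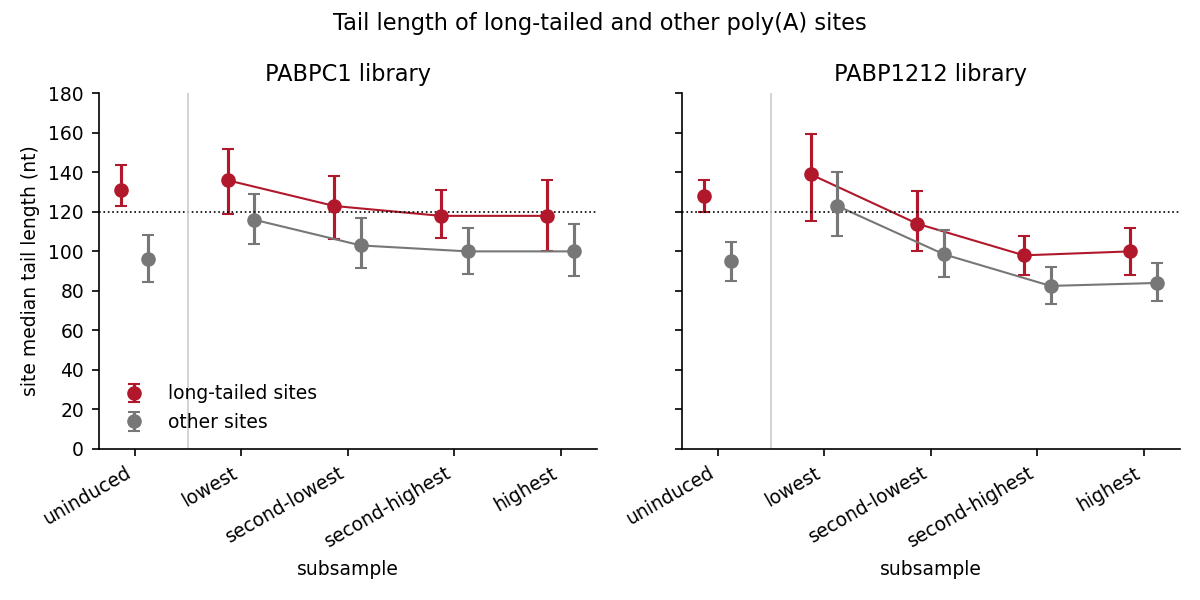
Site median tail length (y axis, nt) in the uninduced subsample and at the 4 transgene levels (x axis) of each library, for long-tailed sites (red) and other sites (grey). Points are medians over sites with 10 or more reads and bars are quartiles over sites, with a dotted line at the 120 nt threshold. Both sets are lower at the highest than at the lowest level, and the red points stay 15.5 to 20 nt over the grey ones in sorted cells.

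The gap between the medians of the sets, over the sites measured at each level, moved by at most 2 nt over the levels. In rising order of PABPC1 it was 20, 20, 18 and 18 nt, and in rising order of PABP1212 16, 15.5, 15.5 and 16 nt. A straight line through the medians had a slope of −5.9 nt per PABPC1 level for long-tailed sites and −5.1 nt for other sites. With PABP1212 the slope was −13.3 nt per level for both sets. These falls were not even over the levels. From the second-highest to the highest PABP1212 level, the median change within sites was 2 nt over 267 long-tailed sites. Over 2202 other sites it was 1 nt. With PABPC1 that last change was −2.5 nt over 161 long-tailed and 1.5 nt over 1638 other sites. Followed within sites measured at both ends, the median change between the end levels of PABP1212, highest minus lowest, was −34.5 nt over 237 long-tailed sites and −40 nt over 1939 other sites. With PABPC1 it was −15 nt over 96 long-tailed and −17 nt over 1096 other sites. The gaps in sorted cells are near the 18.5 and 23 nt seen between uninduced subsamples. Those rest on other sets, of 41 and 87 sites chosen with 20 or more reads in 1 subsample, so the sizes are not strictly comparable. The sorted gaps are under the 35 and 33 nt that the choice gave in the uninduced subsamples themselves. No test was made of this difference, because the sites were chosen with results of these data known.

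Long tails were more frequent at long-tailed sites, read by read, and short ones less frequent at the higher levels. Where PABPC1 was lowest, 42.3% of the reads of long-tailed sites had tails of 150 nt or more (exact Clopper-Pearson 95% interval 40.6 to 44.0), against 27.2% at the other sites. At the highest PABPC1 level these shares were 35.1% (33.7 to 36.6) and 19.7%. With PABP1212 they were 46.5% (45.4 to 47.7) and 36.7% at the lowest level and 28.8% (28.2 to 29.4) and 15.9% at the highest. Tails of 200 nt or more made up 13.7% of the reads of long-tailed sites at the highest PABP1212 level and 5.63% at the other sites. Short tails, under 30 nt, made up 9.13% (8.76 to 9.52) of the reads of long-tailed sites against 13.8% at the highest PABP1212 level, and 5.44% (4.77 to 6.18) against 6.91% at the highest PABPC1 level. At the lowest levels the intervals of both sets overlapped, with 7.16% (6.59 to 7.78) against 7.77% with PABP1212 and 3.31% (2.72 to 3.98) against 3.69% with PABPC1. The intervals cover counting error only.

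Well-read long-tailed sites had a larger excess in sorted PABP1212 cells than sparsely read ones, while with PABPC1 the ranges overlapped. Among the 48 with 50 or more pooled uninduced reads, the excess over the other sites was 20 to 27 nt over the 4 PABPC1 levels and 20 to 23.2 nt over the 4 PABP1212 levels. Among those with 20 to 29 reads it was 7 to 25 nt and 12.5 to 14.5 nt. The excess did not follow the uninduced median steadily. With PABP1212 the excess was 14.5 to 18 nt for sites of 120 to under 130 nt and 13.5 to 15.5 nt for sites of 130 to under 150 nt, while the 18 sites of 150 nt or more had 13.5 to 25.8 nt, over the class of 120 to under 130 nt at 3 of the 4 levels. Across the long-tailed sites at the highest PABP1212 level, the Spearman rho between the pooled uninduced median and the median there was 0.02 over 267 sites, while across the other sites it was 0.36 over 2203. The sites share libraries, and the choice narrowed the range among the long-tailed ones, so these are descriptions.

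**Figure D2:**
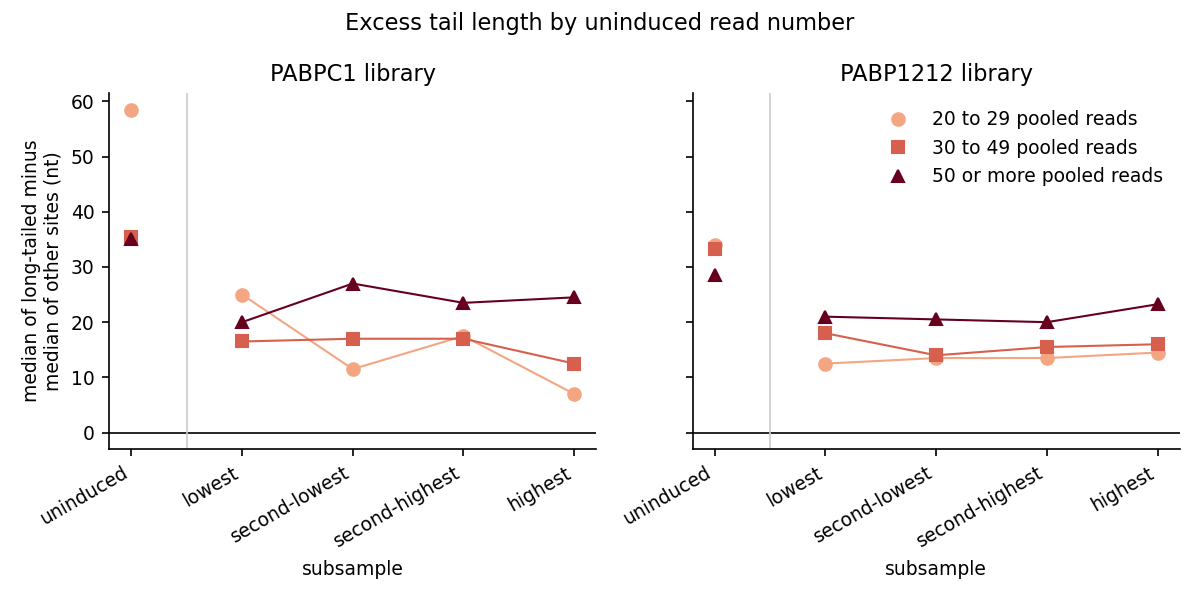
Median tail of long-tailed sites minus that of other sites (y axis, nt) in each subsample (x axis), with long-tailed sites divided by their pooled uninduced reads. The uninduced points come from the reads that chose the sites, and no error is drawn. In sorted cells of the PABP1212 library, sites with 50 or more reads lie at 20 to 23.2 nt and those with 20 to 29 reads at 12.5 to 14.5 nt.

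A set of sites was long throughout. Of the 267 long-tailed sites, 88 had 10 or more reads in all 8 sorted subsamples. Of these, 40 (45.5%) lay over the other sites' median in all 8 subsamples, as did 65 of the 1045 other sites so measured (6.22%). In all 8 subsamples 23 of the 88 (26.1%) lay over the other sites' upper quartile, against 3 of 1045 (0.287%). At the other end, 11 of the 88 lay over the other sites' median in 4 or fewer subsamples.

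Of the 88, 4 sites had medians of 120 nt or more in all 8 sorted subsamples, and none of the 1045 other sites did. They were picked out after their values were seen. The site at 186507686 on chromosome 3 (plus strand) had medians of 145, 163, 177 and 149.5 nt in rising order of PABPC1 and 178, 190, 125 and 141 nt in rising order of PABP1212. Its highest value was at the second-lowest PABP1212 level (136 reads, 95% order-statistic interval of the median 166 to 210 nt), and its pooled uninduced median was 129 nt. Its relative abundance, tested as described further on, fell with PABP1212 (−0.30 ± 0.08 log2 per level, SE; limma adjusted p = 0.0234) and kept that call under 9 of 13 alternatives. The site at 73576019 on chromosome 10 (minus strand) had 147, 138.5, 147 and 166 nt with PABPC1 and 154, 137.5, 130 and 129 nt with PABP1212. That at 13265723 on chromosome 19 (plus strand) had 124, 121, 174 and 167 nt with PABPC1, where 15 to 45 reads stood behind a value, and 165.5, 148, 141 and 138 nt with PABP1212. In the PABPC1 library the chromosome 3, 10 and 19 sites were longer at the highest level than at the lowest, unlike the median of all long-tailed sites. The fourth, at 38962520 on chromosome 8 (plus strand), had 157, 130.5, 123 and 123 nt with PABPC1 and 171.5, 121, 120 and 132 nt with PABP1212.

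The most read long-tailed sites differed in how their tails were ordered over the levels. The site with the most pooled reads, 395, at 30194313 on chromosome 20 (plus strand), had medians of 148, 125, 132 and 124.5 nt as PABPC1 rose and 141, 118, 103 and 112 nt as PABP1212 rose. The next, at 104341704 on chromosome 12 (plus strand) with 287 reads, had 134, 127, 123 and 138 nt with PABPC1 and 158, 117, 113 and 107 nt with PABP1212. The chromosome 20 site was longest at the lowest level in both libraries, and the chromosome 12 site in the PABP1212 library only. In the test described in the next paragraph neither passed with PABP1212 (limma adjusted p = 0.539 and 0.161). The chromosome 17 site just inside the threshold had 130, 132, 130 and 162.5 nt with PABPC1 and 150, 145, 114 and 113 nt with PABP1212. The 4 sites with the longest pooled medians among those with 50 or more reads also varied over the levels. At 42090193 on chromosome 20 (plus strand) a pooled median of 153.5 nt (50 reads) stood beside 134, 131, 136.5 and 100 nt with PABP1212. At 39918688 on chromosome 22 (plus strand) 144 nt stood beside 151, 157.5, 144 and 163 nt with PABPC1 and 152.5, 147, 118.5 and 113 nt with PABP1212. The other long ones, with pooled medians of 144.5 nt at 111712210 on chromosome 3 (plus strand) and 141 nt at 54077184 on chromosome 10 (plus strand), had 90 and 82 nt at the second-highest PABP1212 level and 110 and 111.5 nt at the highest.

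Tail trends over the levels were tested site by site, as the slope of the mean log2(nt + 1) per level in a limma fit of the 8 sorted subsamples over all 1171 sites with 10 or more reads in each, with Benjamini-Hochberg adjustment over those sites. A fall with rising PABP1212 passed (limma adjusted p under 0.05) at 2 of the 88 long-tailed sites fitted (2.27%), beside 12.0% of all sites tested. No rise passed. Most sites that did not pass also leaned down, with negative PABP1212 slopes at 82 of the 88, against 1121 of all 1171 sites. With PABPC1 slopes were negative at 58 of the 88, against 929 of all 1171. The background over PABPC1 trends and over the difference of the trends was 0%, and no long-tailed site passed either by limma (0 at an unadjusted p under 0.05 for each, beside 14 and 5 of all sites). The median slope of the long-tailed sites was −0.11 log2 per level with PABP1212 and −0.03 with PABPC1, beside −0.14 and −0.08 over all sites. In nt, where a parallel shift weighs the same at any length, the PABP1212 medians were −9.93 and −10.2 nt per level. A fall passed there at 22 of the 88 (25%), beside 39.2% of all sites. With the median of each subsample subtracted, 1 long-tailed site passed, longer relative to that median at higher PABP1212, beside 0.769% of all sites (0.512% falling and 0.256% rising). The long-tailed sites fitted had a median of 51.4 reads per subsample. All 1083 remaining sites fitted, whatever their number of uninduced reads, had 73.6. The part of this difference in the lower share of calls was not tested.

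The counts depended on single subsamples. The 2 became 0 without any 1 of the PABPC1 levels, where 6.05% to 8.83% of all sites passed, and 0 without the PABP1212 lowest or second-lowest level, where no site passed by limma (10.4% and 17.0% of all sites and 2 and 6 of the 88 at an unadjusted p under 0.05). They became 21 without its second-highest and 39 without its highest level, where 45.3% and 65.2% of all sites passed. Without the PABP1212 highest level 5 long-tailed sites also passed for the difference of the trends, all lower with PABP1212, beside 10.5% of all sites.

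Of the 2 sites whose falling tail passed, 1 was well read. At 127998469 on chromosome 9 (minus strand), with 136 pooled reads and a pooled median of 124 nt, PABP1212 medians were 138, 113, 106 and 97 nt, with order-statistic 95% intervals of 127 to 152 nt at the lowest level and 92 to 103 nt at the highest, so that the intervals of the lowest and highest levels did not overlap. The slope was −0.15 ± 0.04 log2 per level (SE; limma adjusted p = 0.0299), and the PABPC1 slope −0.13 ± 0.08 (adjusted p = 0.999). The other, at 88810243 on chromosome 10 (minus strand), had 156, 128, 85 and 68.5 nt with PABP1212 on 17 to 96 reads, a slope of −0.36 ± 0.11 (SE; limma adjusted p = 0.0394). Its PABPC1 medians of 109, 134, 137 and 106 nt rested on 10 to 21 reads each. Over the alternatives the adjusted p ranged from 0.000729 to 0.982 for the chromosome 9 site and from 0.00151 to 0.323 for the chromosome 10 site, and 7 of 16 and 6 of 15 alternatives kept the call.

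Long-tailed sites took a larger share of the reads where the transgene was lowest. Of the reads at all sites with 20 or more pooled reads, they held 6.53% where PABPC1 was lowest (95% Clopper-Pearson bounds 6.31 and 6.75), 5.30% (5.15 to 5.46) at the next level, 5.18% (5.07 to 5.29) at the second-highest level, then 4.88% (4.74 to 5.03) at the highest. With PABP1212 the shares were 7.16% (7.00 to 7.32), 5.54% (5.44 to 5.63), 4.93% (4.87 to 4.99) and 4.82% (4.76 to 4.88). Uninduced cells had 4.61% and 4.52%, but reads of uninduced cells chose the sites. The lowest level was thus 1.34 times the highest with PABPC1 and 1.49 times with PABP1212. Without the 6 long-tailed sites with the most reads summed over all 10 subsamples, a choice made after the data were seen, the ratios were 1.34 and 1.49. These are shares of reads, so fewer transcripts at the other sites and more at the long-tailed ones cannot be told apart.

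**Figure D3:**
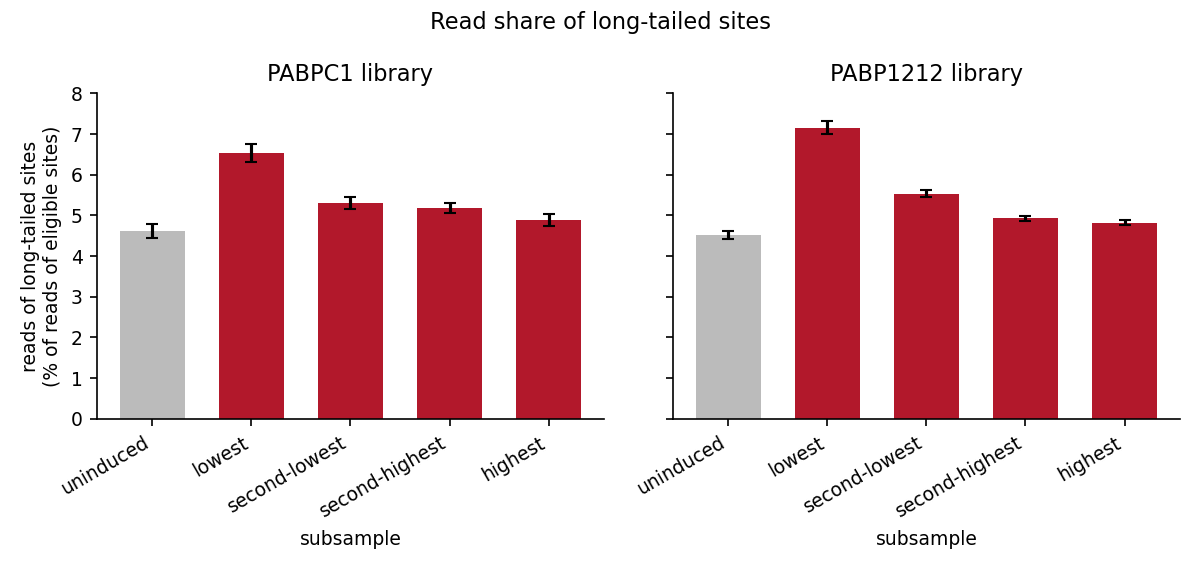
Reads of the 267 long-tailed sites as a percent of the reads of all 2470 sites with 20 or more pooled uninduced reads (y axis), by subsample (x axis), in each library. Bars are shares, with exact 95% Clopper-Pearson intervals for counting error only, and the uninduced bar is grey because its reads chose the sites. The lowest level stands highest in both libraries, at 6.53% and 7.16%.

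The higher share at the lowest level was spread over many sites and was not carried by sites of 1 depth. Changes were taken on the log2(CPM + 1) scale, where CPM is a site's reads scaled to the total of its subsample. The median change from highest to lowest level was 0.25 with PABPC1 and 0.36 with PABP1212, against −0.07 and −0.04 at the other sites. Of the 267 sites, 167 and 188 (62.5% and 70.4%) were higher at the lowest level, beside 46.6% and 47.2% of the other sites. Sites were also divided into 3 classes of equal size by mean reads in the sorted cells. In the most read class, the 42 long-tailed sites had medians of 0.35 and 0.41, while the 781 other sites had −0.16 and −0.18. Of the 42, 32 and 35 (76.2% and 83.3%) were higher at the lowest level, beside 38.7% and 36.1% of the other sites. The middle class had medians of 0.31 and 0.43 at 92 long-tailed sites, beside 0.04 and 0.07. There the shares higher at the lowest level were 58.7% and 73.9%, beside 52.5% and 54.0%, so the PABPC1 shares lay closest in this class. In the least read class, 133 long-tailed sites had medians of 0.25 and 0.27, beside −0.01 and 0.03, and 60.9% and 63.9% were higher, beside 49.3% and 52.5%.

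Across the whole range of uninduced tails, the ratio of read share at the lowest to that at the highest level was highest in the classes at 120 nt or more, with exceptions to a steady climb. Sites of 70 to under 80 nt had ratios of 0.907 with PABPC1 and 0.816 with PABP1212. At 110 to under 120 nt, just outside the threshold, 317 sites had 1.10 (counting interval 1.05 to 1.14) and 1.25 (1.22 to 1.28). At 120 to under 130 nt, 153 sites had 1.36 (1.28 to 1.44) and 1.49 (1.44 to 1.54), and the 114 sites at 130 nt or more had 1.29 (1.19 to 1.40) and 1.48 (1.41 to 1.54), within the intervals of the class before. The 55 sites under 70 nt had 1.12 and 0.981, and with PABPC1 the class of 90 to under 100 nt (0.967) lay below that of 80 to under 90 nt (0.976), within its interval.

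**Figure D4:**
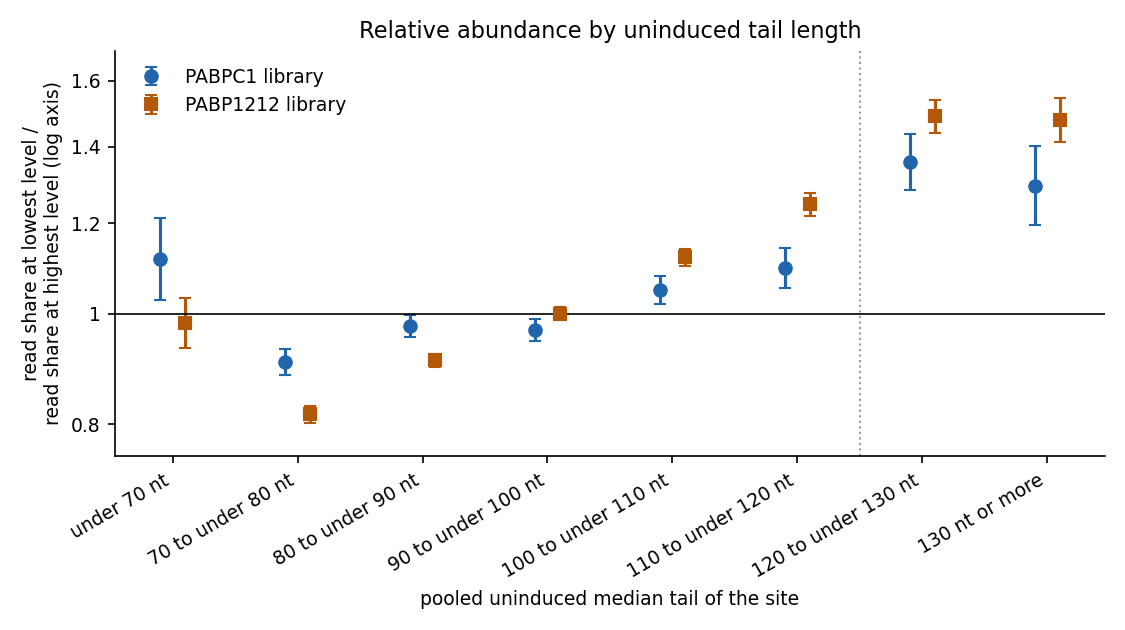
Read share at the lowest level divided by that at the highest level (y axis, log scale) for classes of sites by pooled uninduced median tail (x axis), in the PABPC1 library (blue circles) and the PABP1212 library (orange squares). Bars are exact 95% intervals for counting error only, and the dotted line marks the 120 nt threshold. Ratios run from 0.816 at 70 to under 80 nt to 1.49 at 120 to under 130 nt in the PABP1212 library.

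Abundance trends were tested in a limma fit of log2(CPM + 1), counts per site scaled by median ratios, over the 892 sites with a mean of 50 or more reads in sorted cells. Relative abundance fell with rising PABPC1 at 9 of the 49 long-tailed sites fitted (18.4%), beside 3.36% of all sites tested, and rose at 1 (2.04%), beside 11.3%. With PABP1212 it fell at 7 of 49 (14.3%), beside 2.58%, and rose at 2 (4.08%), beside 17.5%. The median slope of the 49 was −0.04 log2 per level with PABPC1 and −0.09 with PABP1212, where the median over all sites was 0.08 and 0.12. In either direction 10 and 9 of the 49 passed, beside 14.7% and 20.1% of all sites. Slopes were negative at 33 and 34 of the 49 long-tailed sites, against 292 and 247 of all 892.

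On simulated data the PABPC1 calls held more unchanged sites than their threshold allows, with voom precision weights as well but then fewer of them, so the PABPC1 counts may be too high. With voom precision weights, 5 long-tailed sites fell and 1 rose with PABPC1 (background 1.23% and 2.13%), and 9 fell and 2 rose with PABP1212 (3.70% and 18.8%). In either direction the background was 3.36% and 22.5%. Scaled by total reads, 9 fell and 1 rose with PABPC1 (4.15% and 5.83%), and 7 fell and 1 rose with PABP1212 (3.48% and 8.97%), with 9.98% and 12.4% in either direction. With a mean of 10 reads, 7 of 263 long-tailed sites fell and 3 rose with PABPC1 (0.851% and 1.23% of all sites, 2.08% together), and 2 fell and 0 rose with PABP1212 (0.0638% and 0.319%, 0.383% together; 12.9% of the 263 and 13.0% of all sites at an unadjusted p under 0.05). The 10 calls for PABPC1, 9 of them falling, became 3 of 61 without its lowest level, beside 0.393% of all sites. Of those 3, only 1 fell and 2 rose, beside 1 and 3 of all 1018 sites, while slopes were negative at 44 of the 61. The calls became 18 of 60 (30%; 13 falling and 5 rising) without its second-lowest level, beside 29.5%. They became 5 of 55 (4 falling and 1 rising) without its second-highest, beside 2.13%, and 1 of 61 (falling) without its highest, beside 0.601%. The 9 calls for PABP1212 became 0 without its lowest level, where 1 of all sites passed, and 4 of 55 without the PABPC1 second-highest level, beside 5.32%.

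Among the 49 long-tailed sites fitted, 13 passed an abundance trend in at least 1 library, and 6 of them passed in both, 5 falling and 1 rising. The share of all sites passing in either or in both libraries was not counted, so these counts are a description. Of these 13, the steepest decline was that of the site at 75254466 on chromosome 4 (plus strand), which had 698, 284, 171 and 95.4 CPM as PABPC1 rose, on 46 to 10 reads, and 1087, 481, 225 and 197 with PABP1212. The slopes were −0.88 ± 0.10 log2 per level (SE; limma adjusted p = 0.000287) and −0.78 ± 0.10 (adjusted p = 0.000966). Values dropped at each step in both libraries, and the uninduced values, 548 and 635, lay between the 2 lowest levels. The PABPC1 call was kept under all 13 alternatives and the PABP1212 call under 12 of 13, the exception being without the PABP1212 lowest level, with an adjusted p of 0.607 there and from 7.03e-06 over the alternatives. Its tail medians were 189, 143, 153 and 153.5 nt with PABPC1 and 151, 141.5, 91 and 121 nt with PABP1212, and no tail trend passed.

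The site at 18499986 on chromosome 19 (plus strand) followed the same course. It had 911, 616, 398 and 315 CPM with PABPC1 and 937, 442, 269 and 218 with PABP1212, and slopes of −0.48 ± 0.09 (SE; limma adjusted p = 0.00763) and −0.63 ± 0.09 (adjusted p = 0.000966). Uninduced cells had 474 and 493, well under the values at the lowest level and over those at the highest. Weaker declines passed in both libraries at 3 sites picked out after their values were seen. With PABPC1 and PABP1212 the slopes were −0.31 and −0.22 at 33189320 on chromosome 10 (minus strand), −0.29 and −0.34 at 46751929 on chromosome 12 (minus strand), and −0.29 and −0.27 at 187508948 on chromosome 4 (minus strand). At these sites, in the same order, the limma adjusted p were 0.0173 and 0.0416, 0.047 and 0.0209, and 0.0262 and 0.024. Their calls held under 10 and 6 of 13 alternatives at the chromosome 10 site, 7 and 9 at the chromosome 12 site, and 8 and 8 at the chromosome 4 site. The chromosome 10 site had 1382, 968, 729 and 658 CPM with PABPC1 and 1022, 732, 610 and 561 with PABP1212, all over the uninduced 489 and 493.

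The rising site was at 44445591 on chromosome 20 (plus strand). It had 182, 186, 341 and 477 CPM with PABPC1 and 236, 257, 325 and 465 with PABP1212, slopes of 0.55 ± 0.09 (SE; limma adjusted p = 0.00533) and 0.39 ± 0.09 (adjusted p = 0.0150). At the highest levels it was near the uninduced 459 and 441. The calls were kept under 12 and 10 of 13 alternatives.

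**Figure D5:**
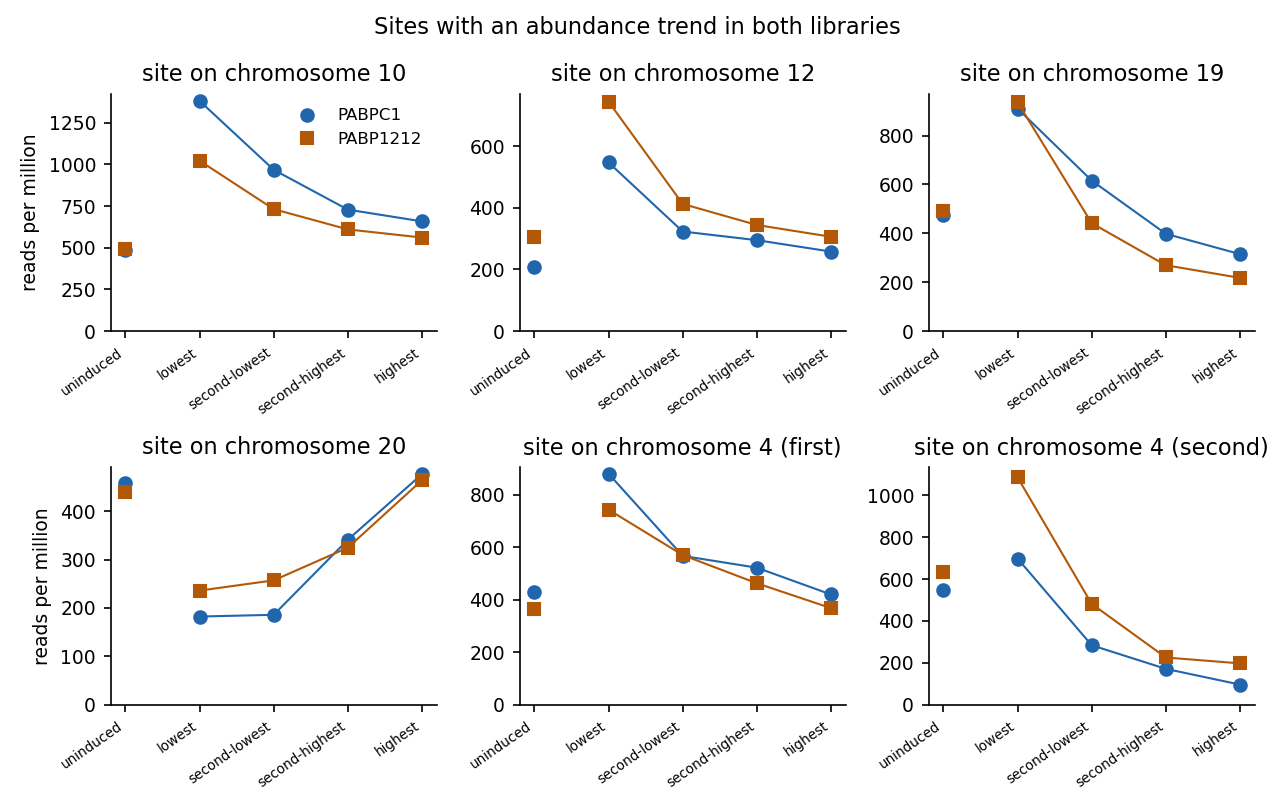
CPM, reads scaled to the subsample's total (y axis, from 0), in each subsample (x axis) for the 6 long-tailed sites with an abundance trend in both libraries, PABPC1 in blue and PABP1212 in orange. Each point is 1 subsample with no replicate, and of the chromosome 4 panels the first is the site at 187508948 and the second that at 75254466. The chromosome 20 site climbs from 182 to 477 with PABPC1 and the other 5 decline from the lowest to the highest level.

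Among sites called in 1 library, declines with PABPC1 were seen at 34925787 on chromosome 5 (plus strand), with 425, 176, 160 and 76.3 CPM (slope −0.71 ± 0.12, SE; limma adjusted p = 0.00533), and at 113421402 on chromosome 2 (plus strand), with 455, 147, 165 and 95.4 (−0.61 ± 0.14; adjusted p = 0.0173). The highest-level values rest on 8 and 10 reads. With PABP1212 the chromosome 5 site had 336, 234, 170 and 166 CPM and the chromosome 2 site 329, 221, 189 and 192, with slopes of −0.28 and −0.19 that did not pass (limma adjusted p = 0.114 and 0.345). At 8071737 on chromosome 1 (minus strand) the PABP1212 values were 715, 475, 274 and 249 (−0.47 ± 0.10; adjusted p = 0.00966), and the PABPC1 slope of −0.27 did not pass (adjusted p = 0.0714). The chromosome 10 site at 73576019, whose tails stayed at 120 nt or more, rose with PABP1212 from 422 to 679 CPM (0.27 ± 0.08; adjusted p = 0.0320), and the call was kept under 8 of 13 alternatives. Whether these trends differ between the transgenes was not tested.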

How the data were processed

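Per the labels' protocols, 1 μg of total RNA per library was sequenced with a direct RNA kit after ligation of custom barcoded adapters. Per the file headers, the authors deposited 1 row per read that gives its subsample, poly(A) site and tail in nt, and their barcode table merges 3 barcodes into each sorted level. minimap2, Bowtie2 and hg38 stand in the submitters' processing notes with no role, and the caller of tail lengths is not given in the sources used here. Reads under names that the barcode table does not list (2.86% and 5.63% of the reads) were not used.

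Tails of 0 nt were kept. Tail trends were fitted in R 4.3.3 by limma 3.58.1, weighted by reads, on a term for the library and, inside each library, the centred rank of the level (4 residual degrees of freedom). Abundance, counted from these reads per site and scaled by median ratios, used the same terms with a variance trend. P-values rest on the spread of subsamples around the fitted lines, which may be technical. That spread also holds any departure of the levels from a straight line. Other work used Python 3.11.15, pandas 2.3.3 and SciPy 1.17.1, and the fits were tested on simulated data.

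Sites named are the 6 most read members, the 4 longest with 50 or more reads, those at the threshold, and those past an adjusted p of 0.05 with the largest slopes. Sites called in both libraries or at 120 nt or more throughout were added after their values were seen. Members, lists and filters were chosen with earlier results of these data known.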

Additional observations from a re-analysis of the deposited data

How the results depend on the processing

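No paired analysis was possible because each transgene has 1 library and no subsample was repeated. Of the PABP1212 tail calls among long-tailed sites, 2 in the main analysis, 1 of 25 was left with 20 reads per subsample (beside 26.0% of all sites), 22 of 88 without a log (39.2%), 1 of 88, longer, with subsample medians subtracted (0.769%), 0 of 237 with each library alone (2.86%; 7.59% and 13.0% at an unadjusted p under 0.05), 16 of 83 without tails under 10 nt (40.0%) and 8 of 88 with site medians (24.3%). Leaving out 1 subsample gave 0 to 39, and 0 to 5 for the trend difference. PABPC1 abundance calls, 10, became 6 of 49 with voom weights (3.36%) and 1 to 18 when 1 subsample was left out. PABP1212 abundance calls, 9, became 2 of 263 with a mean of 10 reads (0.383%), 4 of 215 with a mean of 20 (3.96%), and 0 to 13 when 1 subsample was left out.

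The mean gap over the levels, 19 nt (PABPC1) and 15.75 nt (PABP1212), was 25.62 and 24.88 with 50 pooled reads, 14.5 and 12.62 at a threshold of 110 nt, 24.94 and 22.38 for sites with 10 reads in all 10 subsamples, and 25.25 in both over pooled reads. With PABP1212 it was 14.5 at 130 nt, 17.25 by the mean of the uninduced medians, and 19.12 and 14.5 for sites chosen in the PABPC1 or PABP1212 uninduced subsample. The share ratios were 1.486 and 1.66 with 50 pooled reads, 1.195 and 1.344 at 110 nt, and 1.268 and 1.371 over all reads (added after the data were seen). With PABP1212 it was 1.546 by the mean of the uninduced medians. Gaps and ratios kept their direction under each of these. For the named sites with a call, 175 of these alternatives kept it, 72 lost it and none changed its sign. Depth limits the PABPC1 library, where 116 of the 267 sites had 10 reads at the lowest level.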

Other observations

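Of the 267 long-tailed sites, 106 (39.7%) lay under 5000 nt from another site of their strand, against 35.6% of the other sites, and 56 (21.0%) under 500 nt, against 22.4%. An upstream neighbour within 5000 nt was present at 24.3% of long-tailed and 18.8% of other sites, and a downstream one at 16.9% and 20.3%. For 30 long-tailed sites the nearest neighbour with 20 or more pooled reads was an other site. In sorted PABP1212 cells the long-tailed site of the pair was longer in 12 of 23 measured pairs at the lowest level, 18 of 30 at the second-lowest, 20 of 30 at the second-highest and 16 of 30 at the highest, with median differences of 5, 9.5, 9 and 1.75 nt. In rising order of PABP1212, long-tailed sites downstream of their neighbour were longer in 6 of 13, 10 of 19, 15 of 19 and 12 of 19 pairs, and upstream ones in 6 of 10, 8 of 11, 5 of 11 and 4 of 11, so which position was more often longer changed between levels. Neighbours may belong to 1 gene, which the files do not say.

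Long-tailed sites were unevenly spread over chromosomes. They made up 4.55% of the sites with 20 or more pooled reads on chromosome 7 (5 of them), 5.79% on chromosome 19 (14) and 6.82% on chromosome 6 (6), beside 18.9% on chromosome 20 (14), 18.1% on chromosome X (13) and 10.8% overall. No test was made of this spread, and these chromosomes were named after their values were seen.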
